A study of Rattus norvegicus with 5 samples.

Results

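Oxidative phosphorylation in Müller cells, the main glia of the retina, was followed through the nuclear genes of complexes I to V on 5 rat oligonucleotide arrays. Members were all probe sets whose only gene symbol begins with Nduf (complex I), Sdh and then a, b, c or d (complex II), Uqcr (complex III), Cox4 to Cox8 (complex IV) or Atp5 (complex V), or is Cycs (cytochrome c). The rule uses names and no measured value. It found 101 of 8799 probe sets, which stand for 55 of 4737 genes, with 27 genes in complex I, 2 in complex II, 3 in complex III, 13 in complex IV, 10 in complex V and 0 for cytochrome c. A further 7 probe sets list such a symbol beside another one and were left out. Cycs, Atp5mc1, Atp5mc2, Cox7a2, Ndufb4 and Ndufs5 occur only on such probe sets. The count of 0 for cytochrome c therefore does not mean that it is absent from the chip.

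All arrays carried total RNA from isolated Müller cells of male Sprague-Dawley rats, without ages in the labels. The normal group was 3 arrays, each with a pool of retinas from 12 healthy rats. The diabetic group was 2 arrays of cells pooled from 12 rats after 6 months of diabetes induced with streptozotocin, which kills insulin-producing beta cells, under low-dose insulin against catabolism. The second diabetic array is labelled a technical replicate, so both were averaged and counted as 1 pool. Its experiment record calls it a 2nd run, and the labels do not say whether both arrays carried the same RNA extract. Every test thus set 3 normal pools against 1 diabetic pool. With so few arrays, precision is low throughout. The question is which transcripts of these glia differ after long diabetes.

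The electron transport chain passes electrons from NADH (complex I) and succinate (complex II) through complex III, cytochrome c and complex IV to oxygen, and complex V, the ATP synthase, uses the proton gradient that results. Its subunits are encoded in the nucleus and, for a small set, in mitochondrial DNA. Müller cells are known for strong glycolysis, whereas the inner segments of photoreceptors are packed with mitochondria.

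Values below are log2 signals after quantile normalisation, with a floor of 4.32 on that scale, and a difference is the diabetic value minus the mean of the normal pools. The arrays had not been scaled alike, since their median deposited signals ran from 27.9 to 91.3. Actin probe sets from both ends of the transcript, whose 3' over 5' ratio rises as RNA degrades, gave 2.61 for normal array 1, 2.55 for diabetic array 2 and 1.46 to 1.76 for the other arrays. Normal array 3 and diabetic array 2 shared a processing day and chip lot, and the difference between them is called the same-day difference. Normal arrays 1 and 2 each had a combination of day and lot of their own, and none was recorded for diabetic array 1. Of 12 Müller cell markers 9 were measured and none lay at the floor, among them Glul, encoding glutamine synthetase, at 12.9 to 13.5 over the 5 arrays. Rlbp1, Gfap and Dkk3 had no probe set with 1 symbol.

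Most oxidative phosphorylation genes had diabetic values close to the normal mean, within the spread of these few arrays. All 55 genes had at least 1 of the 92 member probe sets bright enough to be tested, and each gene is given by its brightest one. The median difference over the 55 genes was -0.028, beside -0.010 over all 6118 tested probe sets, with 24 genes above and 31 below normal. These directions depend on the probe set taken, since 17 of the 26 genes with several tested probe sets had them on both sides of normal (Ndufa4l2, Ndufa6, Ndufab1, Ndufaf3, Ndufb5, Ndufb8, Ndufc1, Ndufs4, Ndufs8, Uqcr11, Cox4i1, Cox5b, Cox6a1, Cox6a2, Cox6c, Cox7a2l and Cox8a). A difference smaller than 0.5 was found for 51 genes (92.7%), compared with 81.7% of all tested probe sets, and 0 genes differed by more than 1, which 3.24% of all tested probe sets did. The share under 0.5 was 87% when all member probe sets were counted. Counted this way, differences of more than 1 also occurred, on a dimmer probe set of Ndufa4l2 (-1.29) and of Uqcr11 (1.24). The normal pools also spread less for these genes, with a median range of 0.49 against 0.70 over all tested probe sets. A smaller difference is thus not particular to the comparison with diabetes. These shares describe the list and were not tested.

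By limma with Benjamini-Hochberg adjustment, 0 of the 92 member probe sets passed an adjusted p of 0.05, as did 0 of all 6118 (0.00% called). At an unadjusted p under 0.05 there was 1 member probe set, that of Ndufv2, beside 1.60% of all tested probe sets. In simulated data of this design the test found 0.3% of 2-fold and 8.4% of 4-fold changes, so it seldom finds changes of such size. Without overlap between the groups, 3 member probe sets were higher in the diabetic pool (3.26% of the 92, against 9.53% of all tested probe sets) and 7 were lower (7.61%, against 7.01%). Among the probe sets that stand for a gene, these were Atp5pb above and Ndufv2, Ndufs8 and Cox4i2 below.

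**Figure D1:**
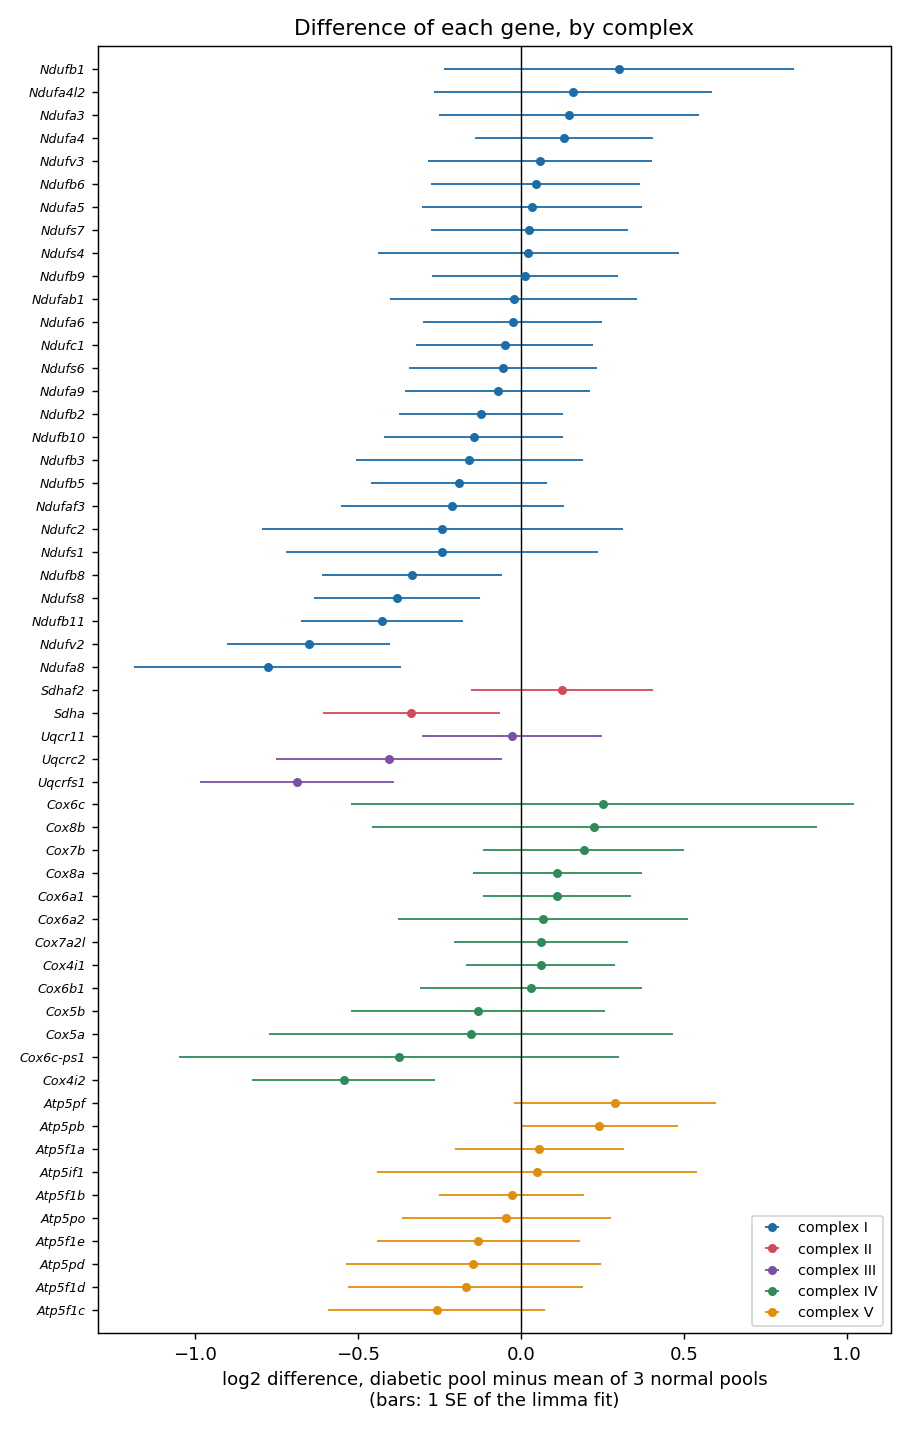
Difference of each of the 55 genes between the diabetic pool and the mean of the 3 normal pools (x axis, log2; bars are 1 SE of the limma fit), grouped by complex with the highest gene of each on top. Points run from -0.78 for Ndufa8 to 0.30 for Ndufb1, and most bars cross 0.

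The normal pools differed among themselves by more than the groups did in the median. Each normal pool had its own combination of processing day and lot, so pool and processing cannot be told apart here. The median deviation of the 55 genes from their normal mean was -0.16 on normal array 1, 0.14 on normal array 2 and 0.012 on normal array 3, compared with 0.044 on diabetic array 1 and -0.023 on diabetic array 2. Both diabetic medians thus lay inside the normal ones. Normal array 1 held the lowest normal value for 37 of the 55 genes, whereas it did so for 40.4% of all tested probe sets. Without that array the median difference was -0.16, and without normal array 2 it was 0.044. The spread over the 3 normal pools was larger than the difference for 46 genes, and the gap between the 2 diabetic arrays was larger than the difference for 48. Such an order is not particular to these genes. Their median absolute difference, diabetic gap and normal range were 0.14, 0.39 and 0.49. Over all tested probe sets the same medians were 0.23, 0.36 and 0.70.

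**Figure D2:**
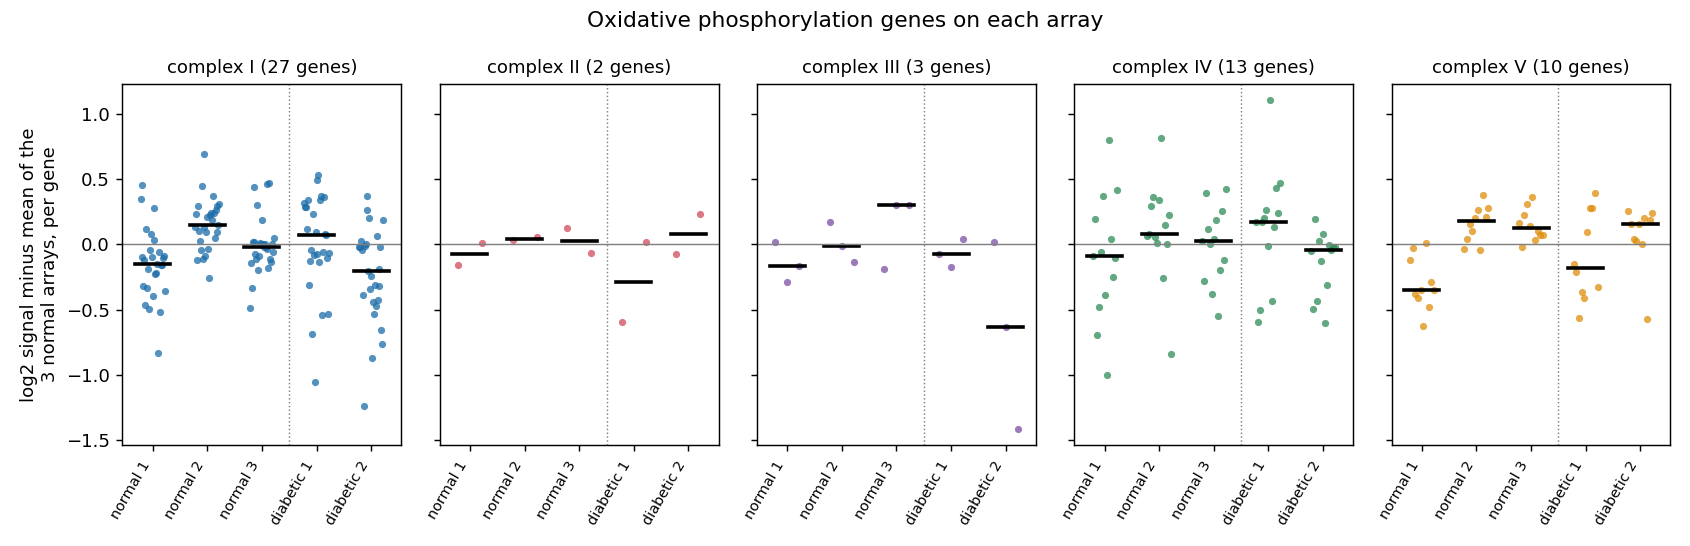
Deviation of each gene from the mean of the 3 normal arrays (y axis, log2) on each of the 5 arrays (x axis), in 1 panel per complex; points are genes and black lines are medians. The medians of complex V are lowest on normal array 1 (-0.35) and diabetic array 1 (-0.18), and that of complex III is lowest on diabetic array 2 (-0.64).

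Promoter sequence is shown for Ndufv2 and Atp5pb, whose diabetic arrays did not overlap the normal ones, for Ndufs8, where 1 diabetic and 1 normal value were nearly equal, and for Sdha, the catalytic subunit of complex II. Each run is the 250 bases before the start of the gene in RefSeq, rat build GRCr8, read 5′ to 3′ on the gene's strand. Capitals mark a match to the core of the NRF1 motif (GCGCA, any base, GCGC) or of the GABP motif (CCGGAAG) on either strand; both factors are known regulators of respiratory chain genes. No printed match overlaps another. The regions are chr9:113157521-113157770 (minus strand) for Ndufv2, chr1:210573699-210573948 (minus) for Ndufs8, chr2:196123738-196123987 (minus) for Atp5pb and chr1:30764303-30764552 (plus) for Sdha.
Ndufv2: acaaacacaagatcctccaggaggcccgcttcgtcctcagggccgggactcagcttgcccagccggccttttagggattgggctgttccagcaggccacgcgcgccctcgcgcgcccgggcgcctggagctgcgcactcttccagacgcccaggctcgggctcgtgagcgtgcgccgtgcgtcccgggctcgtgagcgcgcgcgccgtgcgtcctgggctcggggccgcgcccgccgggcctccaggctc
Ndufs8: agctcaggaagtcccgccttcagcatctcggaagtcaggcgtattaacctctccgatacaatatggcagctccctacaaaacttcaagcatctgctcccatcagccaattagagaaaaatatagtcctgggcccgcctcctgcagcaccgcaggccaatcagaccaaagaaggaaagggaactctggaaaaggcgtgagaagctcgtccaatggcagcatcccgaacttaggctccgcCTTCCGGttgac
Atp5pb: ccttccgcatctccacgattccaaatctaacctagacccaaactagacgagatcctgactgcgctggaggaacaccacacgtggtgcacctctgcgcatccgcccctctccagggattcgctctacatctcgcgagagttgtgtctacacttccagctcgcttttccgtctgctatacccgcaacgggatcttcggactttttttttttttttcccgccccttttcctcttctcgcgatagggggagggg
Sdha: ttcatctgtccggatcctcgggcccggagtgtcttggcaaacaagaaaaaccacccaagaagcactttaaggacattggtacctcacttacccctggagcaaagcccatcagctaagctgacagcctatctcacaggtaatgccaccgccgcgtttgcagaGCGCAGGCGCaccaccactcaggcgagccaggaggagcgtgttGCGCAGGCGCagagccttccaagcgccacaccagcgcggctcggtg
Sdha held 2 NRF1 matches, with first bases at -89 and -46 from the start, and Ndufs8 a GABP match at -12, while neither set of letters was found in the windows of Ndufv2 and Atp5pb. Of the 55 genes 47 had an entry in the promoter table, Cox4i2 not among them. The NRF1 letters occurred in 5 of these (10.6%), against 3.75% of all 33469 promoters and 6.13% of those of 4192 genes on the array. The GABP letters occurred in 9 (19.1%), against 7.27% and 10.3%. The matches are a description of the letters and were not tested for enrichment.

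Complex I, the NADH dehydrogenase, had 10 genes above and 17 below normal, with a median difference of -0.056 and a range of -0.78 to 0.30. By limma 0 of the 27 passed the adjusted threshold, and 1 had an unadjusted p under 0.05. The same-day median was -0.24, and without diabetic array 1 the median was -0.21. The 4 measured core subunits, which carry iron-sulphur clusters on the route of electrons, had a median of -0.31, which was -0.080 on diabetic array 1 and -0.54 on diabetic array 2. The median of -0.31 depends on the probe set taken for Ndufs8, whose other tested probe sets lay near 0 (-0.033 and 0.0069). The 21 supernumerary subunits, which surround the core, had a median of -0.050 with 8 above and 13 below.

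Ndufv2, a core subunit of the NADH-oxidising module, was at 9.48, 9.72 and 9.51 on the normal arrays and at 9.03 and 8.80 on the diabetic ones. Both diabetic values lay below every normal value. The difference was -0.65 (SE 0.25, 3 normal pools and 1 diabetic pool), or 0.637 times normal, with an unadjusted p of 0.0436 and an adjusted p of 0.9999 by limma. It ranged from -0.76 to -0.54 when each array was left out in turn, and the same-day difference was -0.70. Ndufv2 had no other probe set with 1 symbol.

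Ndufs8, a core subunit that holds iron-sulphur clusters, was at 8.86, 9.06 and 8.97 in normal pools and at 8.86 and 8.31 on the diabetic arrays. Diabetic array 1 and normal array 1 were equal at this precision, so the lack of overlap rests on the third decimal or beyond. The difference was -0.38 (SE 0.25), with -0.10 without diabetic array 2. Its 2 other tested probe sets differed by -0.033 and 0.0069, so the lower value was not shared by all probe sets of Ndufs8. The other core subunits Ndufs1 and Ndufs7 differed by -0.24 (SE 0.48) and 0.027 (SE 0.30).

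Ndufa8, a supernumerary subunit on the intermembrane side, had the lowest difference of all 55 genes at -0.78 (SE 0.41). It was at 8.12, 8.61 and 9.02 on the normal arrays and at 8.27 and 7.35 on the diabetic arrays. Diabetic array 1 lay within the normal values and only diabetic array 2 lay below them. The difference was -0.31 without diabetic array 2 and -1.24 without diabetic array 1. Ndufb11, a subunit of the membrane arm, showed the opposite arrangement, with 9.13, 8.96 and 9.06 in normal pools, 8.0 on diabetic array 1 and 9.25 on diabetic array 2. Its difference of -0.43 (SE 0.25) became 0.20 without diabetic array 1.

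The remaining supernumerary genes had differences from -0.33 for Ndufb8 to 0.30 for Ndufb1. Ndufb8, a membrane-arm subunit, had further probe sets at -0.024 and 0.049. Ndufab1, the mitochondrial acyl carrier protein, differed by -0.022 on its brightest probe set. A dimmer one lay above normal on both diabetic arrays, at 6.57, 6.65 and 6.75 against 7.58 and 6.80. Ndufaf3, an assembly factor of complex I and no subunit, differed by -0.21 (SE 0.34) on its brightest probe set and by 0.43 (SE 0.46) on another whose diabetic arrays also lay above the normal ones.

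Ndufa4, counted above by its symbol among the supernumerary subunits of complex I, is now placed in complex IV. It differed by 0.13 (SE 0.27). The paralog Ndufa4l2, known as a gene induced by hypoxia and also counted in complex I, is represented by 4 tested probe sets made from different sequences. They differed by 0.16, 0.84, 0.61 and -1.29. The last lay below every normal array on both diabetic arrays, at 6.10, 5.67 and 5.34 against 4.5 and the floor. With signs in both directions, no direction can be given for Ndufa4l2.

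Complex II, succinate dehydrogenase, was represented by its flavoprotein Sdha and by Sdhaf2, which helps to attach the flavin to it. Sdha was at 8.57, 8.76 and 8.85 in normal pools and at 8.13 and 8.65 on the diabetic arrays. Only diabetic array 1 lay below the normal values, and the difference of -0.34 (SE 0.27) shrank to -0.076 without it. Sdhaf2 was at 8.07, 8.11 and 7.99 in normal pools and at 8.07 and 8.29 in the diabetic pool, with a difference of 0.13 (SE 0.28) that was 0.016 without diabetic array 2 and 0.23 without diabetic array 1. Neither passed limma's adjusted threshold.

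Complex III, the cytochrome bc1 complex, had the lowest median of the complexes at -0.40, over only 3 genes, all below normal. That median rested on diabetic array 2, since it was -0.073 without it, and 0 of the 3 genes passed limma's adjusted or unadjusted threshold. Uqcrfs1, the Rieske iron-sulphur protein, was at 9.29, 9.33 and 9.76 in normal pools, at 9.51 on diabetic array 1 and at 8.05 on diabetic array 2. Those diabetic arrays differed by 1.46 from each other. The difference from normal was -0.69 (SE 0.30), and it was 0.036 without diabetic array 2.

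A second probe set of Uqcrfs1 made from the same sequence record repeated this pattern, at 8.36 and 6.79 on the diabetic arrays against 8.04, 8.46 and 8.09. The third did not. It was at 7.0 and 7.02 on the diabetic arrays, both below the normal values of 8.13, 7.08 and 7.28, with a difference of -0.49 (SE 0.50). All 3 probe sets of Uqcrfs1 thus lay below normal on average, by -0.69, -0.62 and -0.49, with different arrays behind the values. Uqcrc2, a core protein of the complex, was at 7.81, 8.09 and 8.41 in normal pools and at 7.93 and 7.47 in the diabetic pool, a difference of -0.40 (SE 0.35) that ranged from -0.64 without diabetic array 1 to -0.17 without diabetic array 2, and was -0.25 without normal array 3.

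Uqcr11, a small subunit of complex III, was at 8.92, 9.08 and 8.71 in normal pools and at 8.83 and 8.92 in the diabetic pool, a difference of -0.028 (SE 0.28). The groups overlapped fully. Its other probe set gave a deposited signal of 21.1 on normal array 1 against 457.9 and 1382.1 on the other normal arrays, and its difference of 1.24 (SE 1.99) rests on that array.

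**Figure D3:**
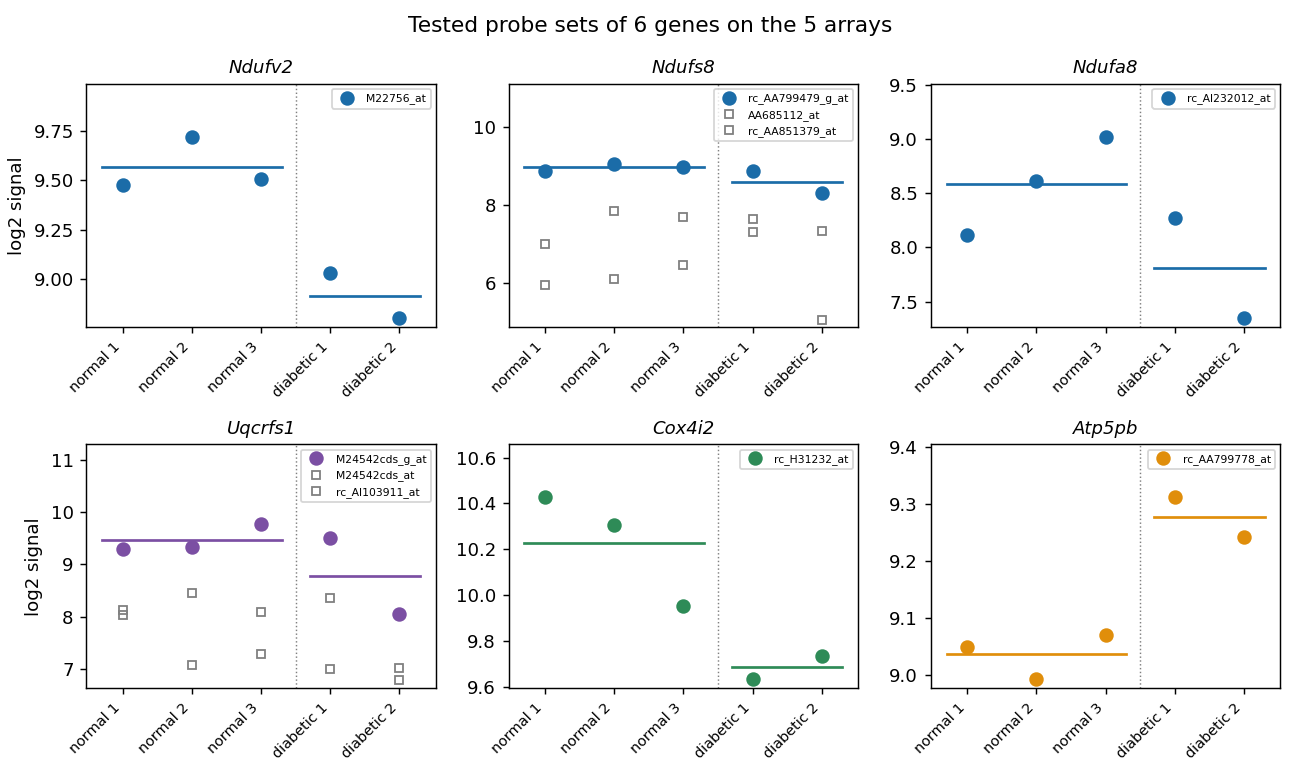
Log2 signal (y axis) of the tested probe sets of Ndufv2, Ndufs8, Ndufa8, Uqcrfs1, Cox4i2 and Atp5pb on the 5 arrays (x axis); filled circles are the probe set that stands for the gene, open squares its other probe sets, and lines the group means of the former. The diabetic values of Ndufv2 (9.03 and 8.80) and Cox4i2 (9.63 and 9.74) lie below all normal values, while for Uqcrfs1 the diabetic arrays differ by 1.46.

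Complex IV, cytochrome c oxidase, had 9 of 13 genes above and 4 below normal, a median of 0.062 and a range of -0.54 to 0.25. By limma 0 passed the adjusted threshold and 0 had an unadjusted p under 0.05. The median was -0.044 without diabetic array 1 and 0.18 without diabetic array 2. The 8 genes that encode the only or the common form of their subunit had a median of 0.086, with 6 above and 2 below.

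Isoform pairs could be set side by side for 3 subunits. Cox4i2, the isoform of subunit 4 known from lung and from low oxygen, was at 10.43, 10.31 and 9.95 in normal pools and at 9.63 and 9.74 in the diabetic pool. Both diabetic arrays lay below every normal array, and the difference was -0.54 (SE 0.28, limma's unadjusted p = 0.106, adjusted p = 0.9999). It ranged from -0.66 to -0.45 when each array was left out in turn, and the same-day difference was -0.22. The common isoform Cox4i1 was at 10.99, 11.14 and 11.11 in normal pools and at 11.25 and 11.03 in the diabetic pool, with a difference of 0.061 (SE 0.23), or -0.045 without diabetic array 1. The groups overlapped on that probe set of Cox4i1. A second one had both diabetic arrays just below the normal ones, with a difference of -0.16 (SE 0.23), and the third differed by -0.052.

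For subunit 6a, the common Cox6a1 differed by 0.11 (SE 0.23) and the heart and muscle isoform Cox6a2 by 0.069 (SE 0.45), with overlap of the groups for both. Other probe sets of Cox6a1 differed by 0.12 and -0.12 and another of Cox6a2 by -0.64 (SE 1.01), so neither isoform had 1 direction. For subunit 8, the common Cox8a differed by 0.11 (SE 0.26), and its 4 probe sets ranged from -0.045 to 0.12. The muscle isoform Cox8b, at the floor on 1 normal array, differed by 0.23 (SE 0.68). Without diabetic array 1 the differences were -0.13 for Cox6a2, -0.019 for Cox8a and -0.022 for Cox8b. Whether the isoforms of a pair differed in their response was not tested.

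Cox7b, a small subunit, was at 8.27, 8.53 and 8.78 in normal pools and at 8.96 and 8.48 in the diabetic pool. The groups overlapped, and the difference of 0.19 (SE 0.31) became -0.044 without diabetic array 1. Cox7a2l, a protein that links respiratory complexes into supercomplexes, differed by 0.062 (SE 0.27) on its brighter probe set. Its dimmer one was at 8.53, 8.61 and 8.45 in normal pools and at 8.33 and 7.54 in the diabetic pool, both lower, with a difference of -0.60 (SE 0.27). The probe sets of Cox7a2l therefore do not give 1 answer. Cox6c, another small subunit, had probe sets at 0.25 (SE 0.77) and -0.010 (SE 0.88), and the pseudogene Cox6c-ps1, which may share sequence with it, was at 6.18, 5.12 and 4.83 in normal pools and at 4.94 and 5.07 in the diabetic pool. Its difference was -0.37 (SE 0.67), or 0.029 without normal array 1, and probe sets of this family are uncertain because of near-identical copies.

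Complex V, the ATP synthase, had 4 of 10 genes above and 6 below normal, a median of -0.036 and a range of -0.26 to 0.29, the narrowest range among complexes with more than 3 genes. By limma 0 passed the adjusted threshold and 0 had an unadjusted p under 0.05. The 5 genes of F1, the catalytic head together with the subunits of its central stalk, had a median of -0.13 with 1 above and 4 below. That direction turned with the array, as their median was -0.37 on diabetic array 1 and 0.15 on diabetic array 2, and the median of complex V was 0.16 without diabetic array 1. The 4 genes of the peripheral stalk, which holds the head in place, had a median of 0.098 with 2 above and 2 below.

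Atp5pb, the b subunit of the stalk, was the only gene above normal without overlap. It was at 9.05, 8.99 and 9.07 in normal pools and at 9.31 and 9.24 in the diabetic pool, with a difference of 0.24 (SE 0.24, limma's unadjusted p = 0.36, adjusted p = 0.9999). The difference stayed between 0.20 and 0.28 when each array was left out in turn, and the same-day difference was 0.17. The SE is that of the fit, which draws on the spread of all probe sets and is wider than the spread of these 3 normal values.

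Atp5pf, the coupling factor 6 subunit of the stalk, was at 8.25, 8.75 and 8.61 in normal pools and at 8.93 and 8.72 in the diabetic pool, a difference of 0.29 (SE 0.31). The groups overlapped, and its second probe set differed by 0.26. Atp5f1c, the gamma subunit that turns inside the head, was at 8.58, 9.11 and 9.18 in normal pools and at 8.39 and 9.0 in the diabetic pool. Diabetic array 1 alone lay below the normal values, and the difference of -0.26 (SE 0.33) became 0.045 without it. The catalytic beta subunit Atp5f1b differed by -0.028 (SE 0.22) and the alpha subunit Atp5f1a by 0.056 (SE 0.26). The remaining F1 genes Atp5f1d and Atp5f1e differed by -0.17 (SE 0.36) and -0.13 (SE 0.31). Atp5if1, the natural inhibitor of the enzyme, had a difference of 0.050 (SE 0.49) on its brightest probe set.

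The 2 diabetic arrays, labelled as technical replicates, departed from normal in different directions for different complexes. Diabetic array 2 lay below diabetic array 1 for 20 of 27 genes of complex I and 9 of 13 of complex IV, with median gaps of -0.27 and -0.22. For complex V it lay below in 4 of 10, with a median gap of 0.38, and for F1 in 0 of 5, with a median gap of 0.41. The median gap over all tested probe sets was 0.037. All 5 F1 genes were thus higher on diabetic array 2, whose actin ratio was the higher of the 2. Their median deviation from the normal mean was 0.15 on that array (actin ratio 2.55) and -0.35 on normal array 1 (actin ratio 2.61). The part of RNA quality in these values was not tested. The gap exceeded 1 for 4 of the 55 genes (7.27%), namely Cox6c, Uqcrfs1, Ndufb5 and Ndufb11, compared with 10.1% of all tested probe sets.

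**Figure D4:**
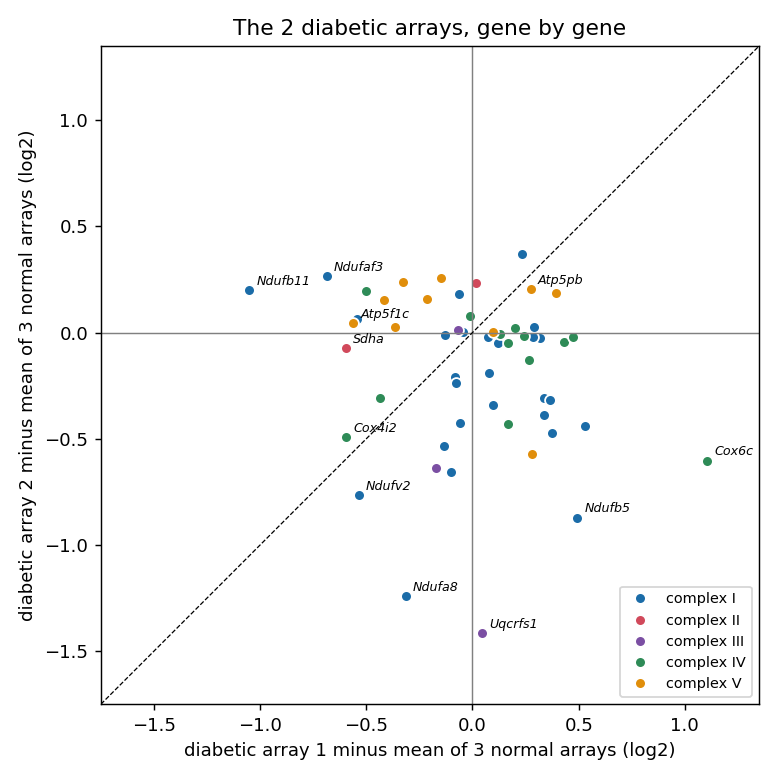
Deviation from the normal mean on diabetic array 1 (x axis, log2) and diabetic array 2 (y axis, log2) for each of the 55 genes, coloured by complex; the dashed line marks equal values. Genes far from the line, such as Uqcrfs1 and Ndufb11, differ between the diabetic arrays, and Ndufv2, Cox4i2 and Atp5pb lie near it.

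Grouped after their values had been seen, the 5 measured subunits that carry iron-sulphur clusters (Ndufs1, Ndufs7, Ndufs8, Ndufv2 and Uqcrfs1) had a median of -0.38 with 1 above and 4 below, while the other 50 members had a median of -0.026. The group median is the value of Ndufs8 on its brightest probe set. Other tested probe sets of Ndufs8 differed by -0.033 and 0.0069, so the group median depends on the probe set taken. The group's median deviation was -0.058 on diabetic array 1 and -0.66 on diabetic array 2. All 5 were lower on the second array, as were 35 of all 55 members and 20 of 27 genes in complex I. As the group was chosen from these values, no test applies.

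Lists of other genes of mitochondrial energy metabolism, written out by name, had median differences from -0.11 to -0.0010, and by limma 0 of their genes passed the adjusted threshold. The 3 mitochondrially encoded subunits of complex IV on the array differed by -0.0010 (COX1, SE 0.27), 0.47 (COX2, SE 0.48) and -0.15 (COX3, SE 0.27). For COX3 the diabetic arrays lay on either side of all 3 normal values. Of 11 tested genes of the citrate cycle and pyruvate metabolism 4 lay above and 7 below normal, with a median of -0.045. The largest statistics were those of Dlat, a core enzyme of the pyruvate dehydrogenase complex, at -0.80 (SE 0.36) with 5.18 and 7.67 on the diabetic arrays, and Pc, pyruvate carboxylase, at -0.48 (SE 0.30).

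The 13 tested carriers, porins and uncoupling proteins had a median of -0.10 with 6 above and 7 below. Slc25a4, the adenine nucleotide translocase that exports ATP, was at 10.95, 11.24 and 11.64 in normal pools and at 10.90 and 10.71 in the diabetic pool, with both diabetic arrays below and a difference of -0.47 (SE 0.33). Ucp2, an uncoupling protein, differed by 0.42 (SE 0.41) with overlap. Of the 4 tested respiratory chain genes outside the symbol rule 1 lay above and 3 below, with a median of -0.11. Cyc1, cytochrome c1 of complex III, differed by -0.20 (SE 0.26), with 8.53, 8.64 and 8.60 against 8.35 and 8.42, both diabetic arrays below. Etfa, which feeds electrons from fat oxidation into the chain, differed by 0.20 (SE 0.40). Among 5 tested regulators, 2 lay above and 3 below, with a median of -0.096. The nuclear receptor Esrra differed by 1.05 (SE 0.67), at 4.34, 4.32 and 5.56 in normal pools and at 5.56 and 6.02 in the diabetic pool. That difference rests largely on normal arrays 1 and 2, which lay at or next to the floor. Ppard, another nuclear receptor, differed by -0.33 (SE 0.56).

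Markers of other cell types were set beside these values. The summed signal of the 10 measured of 21 photoreceptor genes was 4359 to 10170 on the normal arrays and 12833 to 13639 on the diabetic arrays, with 8 of 9 tested genes above normal and a median difference of 0.73. For the 10 measured of 14 microglial and leukocyte genes the sums were 1695 to 2117 and 2440 to 2692, with 8 of 9 tested genes above and a median of 0.80. None of these genes was at the floor on all arrays, and by limma 0 passed the adjusted threshold. Müller cell markers had a median of -0.095, inner retinal neurons -0.097, endothelial cells and pericytes -0.24 and erythrocytes 0.17. The part of these markers in the values of the oxidative phosphorylation genes was not tested, and in pooled cells a lower share of a cell type cannot be told apart from less RNA per cell.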

How the data were processed

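The authors deposited 1 linear intensity per probe set and array; its summary algorithm and scaling are named in no source used here. The chip was an Affymetrix rat genome array, per the file headers. The deposited experiment records, which hold no measurement of expression, served to place arrays into processing days and lots. Intensities were quantile normalised, set to at least 20 and taken as log2. Without the 59 controls and the dimmest 30%, 6118 of 8740 probe sets were tested. Symbols came from the platform annotation, matched by Entrez ID to RefSeq (GRCr8); all 55 members matched. Groups were compared in limma 3.58.1 (R 4.3.3) with trend, two-sided, with Benjamini-Hochberg adjustment over these 6118, the lone diabetic pool being assumed to vary like the normal pools. Fold changes on the floored scale understate changes of dim genes. The step was tested on simulated data (20 simulations, 200 probe sets changed in each). Members, lists and alternatives were chosen with earlier results of these data known. The rule for named genes was the 3 largest statistics per complex, every gene without overlap and the isoform pairs; from other lists, the 2 largest. Dimmer probe sets named beside them were chosen after their values were seen. Alternatives covered scaling, floor, filter, variance model, probe set choice, separate diabetic arrays and leaving out arrays. Figures used matplotlib 3.10.9.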

Additional observations from a re-analysis of the deposited data

How the results depend on the processing

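The members' count of calls stayed at 0 by limma under the alternatives, apart from 1 without the filter on dim probe sets (a probe set of Ndufab1 with all normal arrays at the floor; 0.990% of members, 1.95% of all probe sets) and 1 at an unadjusted p under 0.05. With the 5 arrays as separate samples 0 members and 13 of all 6118 were called. For 20 named genes, 0 of 277 alternative fits passed the adjusted threshold. With 20 means over probe sets, which have no test, 274 of 297 values kept the direction. Many of these could not turn it. The variance model and separate diabetic arrays leave the difference itself unchanged, and floor and filter do so for bright genes. The mean over probe sets does so for a gene with 1 probe set. The count is therefore no measure of stability. Leaving out each array gave 6 to 27 member probe sets above (6.38% to 28.7%, all tested 13.8% to 23.3%) and 7 to 29 below (7.53% to 31.5%, all tested 12.3% to 21.9%) without overlap. The shares turned with the diabetic array left out. Without diabetic array 1 they were 9.78% above (all tested 23.3%) and 31.5% below (all tested 19.3%). Without diabetic array 2 they were 28.7% above (all tested 22.4%) and 17.0% below (all tested 21.9%). On the 3 arrays with an actin ratio under 2 there were 33 above (35.9%, all tested 34.4%) and 32 below (34.8%, all tested 34.6%). Unscaled there were 1 above (1.09%, all tested 8.50%) and 1 below (1.09%, all tested 0.212%), and with median scaling 1 above (1.09%, all tested 8.19%) and 4 below (4.35%, all tested 5.66%). Leaving out each array gave medians of -0.16 to 0.044 for all members, -0.21 to 0.071 for complex I, -0.29 to 0.078 for complex II, -0.64 to -0.073 for complex III, -0.044 to 0.18 for complex IV and -0.25 to 0.16 for complex V. With the deposited values unscaled, where the median of all tested probe sets was itself 0.47, these medians were 0.47 for all members, 0.46, 0.41, 0.093, 0.55 and 0.45 for complexes I to V. On the 3 arrays with an actin ratio under 2 they were -0.042, -0.33, -0.067, 0.16 and -0.22 for complexes I to V. The direction of named genes turned, unscaled, for Ndufb11 (0.088), Sdha (0.18), Uqcrc2 (0.093), Uqcr11 (0.50), Cox6c-ps1 (0.089), Atp5f1c (0.26) and Ndufs8 (0.13), all at or below that shared shift except Uqcr11. It turned without diabetic array 1 for Ndufb11 (0.20, leave-one-out range -1.05 to 0.20), Uqcr11 (0.015, range -0.12 to 0.061), Cox7b (-0.044, range -0.044 to 0.43) and Atp5f1c (0.045, range -0.56 to 0.045), without diabetic array 2 for Uqcrfs1 (0.036, range -1.41 to 0.036), without normal array 1 for Cox6c-ps1 (0.029, range -0.63 to 0.029), without normal array 2 for Uqcr11 (0.061), and with the mean over probe sets for Uqcr11 (0.61). Among isoforms it turned without diabetic array 1 for Cox4i1 (-0.045, range -0.045 to 0.18), Cox6a2 (-0.13, range -0.13 to 0.27), Cox8a (-0.019, range -0.019 to 0.25) and Cox8b (-0.022, range -0.20 to 0.48), without normal array 3 for Cox6a2 (-0.12), without normal array 2 for Cox8b (-0.20), and with the mean over probe sets for Cox4i1 (-0.050) and Cox6a2 (-0.29). Cox6c-ps1 and Cox8b were not tested with the dimmest 50% left out, nor Cox8b with a floor of 50. The cause was not tested. No paired analysis was possible because the labels share no pairing between normal pools and the technical repeat of 1 diabetic pool. The 5 arrays limit every value.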
